A study of Mus musculus with 6 samples.

Results

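Snhg8, Zfas1, Snhg12, Snhg1, Snhg6, Gas5, Snhg5 and Snhg3 are 8 long non-coding genes whose introns hold small nucleolar RNAs (snoRNAs). They were taken by gene name from the 54532 genes of the count table, and 7 of them were among the 13290 genes with enough counts to test. The count table covered L929 cells, an established mouse fibroblast line labelled wild type, in 2 groups of 3 libraries. The treated group received TNF-α at 10 ng/ml together with actinomycin D at 1 µg/ml for 12 hours, and the control group was labelled control. The same treatment text stands in the protocol field of both groups, so the group was taken from the treatment label, which differs between them. No library received TNF-α or actinomycin D alone, so the effects of the 2 agents cannot be told apart. TNF-α is an inflammatory cytokine that can kill L929 cells when new transcription is blocked, and actinomycin D is a DNA-binding drug that blocks transcription, with RNA polymerase I, which makes ribosomal RNA, the most sensitive. The study set treated cells against control cells to profile gene expression. Nothing in the labels ties the 3 libraries of a group to separate cultures. Every p-value is thus set against a spread between libraries that may be only technical.

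A snoRNA host gene is transcribed and spliced like other genes, and its snoRNAs are cut out of the excised introns. Most snoRNAs guide chemical changes of ribosomal RNA in the nucleolus, those with C and D boxes guiding 2′-O-methylation and those with H and ACA boxes guiding pseudouridylation. The spliced exons that remain carry only short reading frames, and several host transcripts are known to start with a terminal oligopyrimidine tract, as ribosomal protein mRNAs do, and to be short-lived because translation exposes them to nonsense-mediated decay. Reads from the joined exons, and from unspliced precursor where it overlaps annotated exons, can both count towards the level of a host.

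The 8 genes differ widely in how many snoRNAs they carry, as the map of exons and snoRNA genes shows. Gas5 (growth arrest specific 5; ENSMUSG00000053332, chr1:161034422-161038539, plus strand of GRCm38) holds 10 annotated snoRNA genes at 9 positions, and its annotated transcript with the most exons has 12. Snhg1 (ENSMUSG00000108414, chr19:8723475-8726443, plus strand) holds 8 and has 10 exons. Snhg12 (ENSMUSG00000086290, chr4:132308623-132311024, plus strand) holds 5 at 4 positions. Zfas1 (ENSMUSG00000074578, chr2:167062934-167065862, plus strand) holds 3. Snhg5 (ENSMUSG00000097195, chr9:88521050-88522929, minus strand) and Snhg3 (ENSMUSG00000085241, chr4:132348014-132353686, minus strand) hold 2 each. Snhg6 (ENSMUSG00000098234, chr1:9941959-9944118, minus strand) and Snhg8 (ENSMUSG00000104960, chr3:123507552-123508404, minus strand) hold 1 each. Every one of these 32 snoRNA genes lay in an intron of at least 1 annotated transcript of its host, and none touched an exon of the transcript with the most exons.

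**Figure D1:**
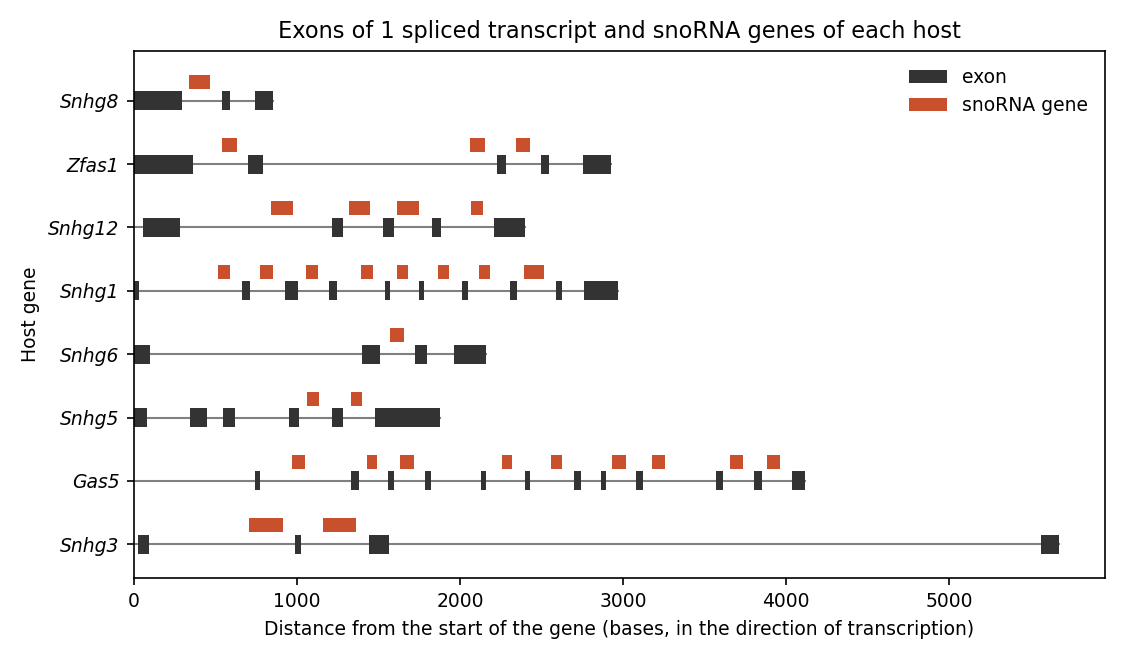
Exons of 1 spliced transcript (dark bars) and annotated snoRNA genes (coloured bars) of the 8 host genes, plotted as distance in bases from the start of each gene in the direction of transcription, with 1 gene per line. The snoRNA genes lie between the exons, from 1 in Snhg6 and Snhg8 to 10 in Gas5. Overlapping snoRNA genes are drawn as 1 bar, so Gas5 has 9 bars and Snhg12 has 4.

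The snoRNAs themselves are short, from 60 to 205 bases. One or a pair from 5 of the hosts is shown because it is the product each intron carries, copied from the GENCODE M21 transcripts on GRCm38. Capitals mark the C box (searched as ATGATGA or GTGATGA) and the D box (CTGA), or, in Snora24, the ACA near the end, all searched on the snoRNA's own strand. Snord47 lies in Gas5 (chr1:161038082-161038158, plus strand), Snord50a and Snord50b in Snhg5 (chr9:88521529-88521600 and chr9:88521797-88521868, minus strand), Snord87 in Snhg6 (chr1:9942463-9942549, minus strand), Snora24 in Snhg8 (chr3:123507937-123508066, minus strand) and Gm25878 in Zfas1 (chr2:167063473-167063565, plus strand).
Snord47: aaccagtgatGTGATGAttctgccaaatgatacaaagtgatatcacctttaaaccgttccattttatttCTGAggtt
Snord50a: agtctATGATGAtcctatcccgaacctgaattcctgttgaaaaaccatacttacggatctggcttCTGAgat
Snord50b: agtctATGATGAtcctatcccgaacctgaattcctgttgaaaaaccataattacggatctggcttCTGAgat
Snord87: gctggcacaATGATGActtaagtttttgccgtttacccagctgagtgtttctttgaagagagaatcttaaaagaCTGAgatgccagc
Snora24: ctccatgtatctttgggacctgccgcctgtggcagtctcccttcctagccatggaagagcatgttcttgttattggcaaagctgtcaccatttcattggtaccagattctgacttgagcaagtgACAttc
Gm25878: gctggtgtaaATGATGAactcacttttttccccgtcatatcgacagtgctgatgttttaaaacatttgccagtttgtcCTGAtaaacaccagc

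Across the 32 snoRNA genes, 19 held both a C box and a D box in these spellings and 6 held the ACA near the end. The 2 snoRNAs of Snhg5 were identical at 71 of 72 bases, differing by C50A counted from 1 at the 5′ end with Snord50a first. A read from one could therefore be assigned to the other.

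The 6 libraries held between 16056207 and 18036322 counts each, a narrow range of depth. The groups differed in what those counts held. The 77 cytosolic ribosomal protein genes took 7.90% ± 0.627 of the counts in control and 20.5% ± 2.35 in treated libraries (SD, n = 3), and mitochondrially encoded genes took 1.08% ± 0.292 and 2.26% ± 0.457. Levels below are in counts-per-million units (CPM) scaled by TMM factors, which set a trimmed mean of the log ratios of genes between libraries to be equal, and these factors were 1.34 to 1.53 in control and 0.640 to 0.797 in treated libraries. Scaled this way, edgeR's quasi-likelihood test called 9941 of the 13290 genes (74.8%) at an adjusted p of 0.05, 34.6% higher and 40.2% lower, and the median log2 fold change of all genes was -0.18. In bulk RNA, fewer cells and less RNA per cell cannot be told apart, and no scaling here measures RNA per cell. Of 13 fibroblast markers 10 were tested, 8 higher and 2 lower in treated cells, with Lum and Dcn at 0 in all libraries. The summed level of 5 macrophage markers was 3.88 to 4.80 CPM in control and 43.9 to 55.4 CPM in treated libraries, almost wholly from Lyz2 and Cd68, while Ptprc and Adgre1 had 1 count each over the 6 libraries. The part of these differences in the results on the host genes was not tested.

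Of the 7 host genes tested, 5 were called higher and 2 lower in treated cells (edgeR's quasi-likelihood test, Benjamini-Hochberg adjusted over all genes tested). The groups of libraries did not overlap for any of the 7, against 77.9% of all genes tested (35.9% with all treated libraries above and 42% with all below). A call was thus the rule among all genes, and the size and the opposite directions describe the hosts better than the number of calls. Snhg8 was higher, and Gas5 and Snhg5 lower, under every scaling tried. The direction of Snhg1, Snhg12, Zfas1 and Snhg6 turned when ribosomal protein or mitochondrial counts were held equal. With mitochondrial counts held equal, not all of these turns reached a call.

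**Figure D2:**
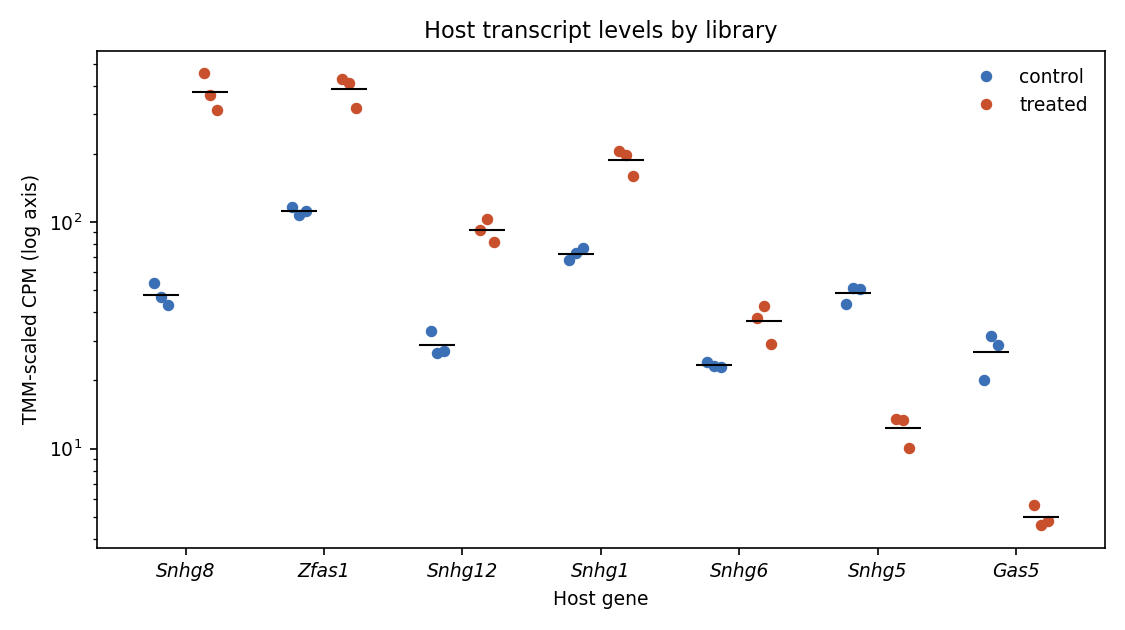
TMM-scaled CPM (log axis) of the 7 tested host genes in each of the 3 control and 3 treated libraries (points), with the group mean as a line. The groups do not overlap for any of the 7 genes, with Snhg8 up from 47.9 to 376 CPM and Gas5 down from 26.7 to 5.02 CPM.

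Snhg8, the host of the H/ACA snoRNA Snora24, had the largest rise by TMM, and Zfas1 came before it only once a trend on gene length was removed. Its counts were 1298, 1141 and 1095 in control and 5131, 4098 and 4089 in treated libraries, which scaled to 53.7, 46.6 and 43.3 CPM and to 453, 362 and 312 CPM. Even the lowest treated library lay far above the highest control library, also in unscaled counts. The means of 47.9 ± 5.34 and 376 ± 71.4 CPM (SD, n = 3) gave a log2 fold change of 2.97 ± 0.19 (SE, adjusted p = 4.89e-07), a 7.85-fold rise. This stood 3.15 above the median of all genes on the log2 scale. The rise was smaller with ribosomal protein genes held equal (log2 fold change 0.54), with mitochondrial genes held equal (0.82), by library totals (1.92) and with the length trend removed (1.29).

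Zfas1, named for the gene Znfx1 at whose start it begins on the other strand, had the highest mean CPM of the hosts in both groups, though in treated libraries it overlapped with Snhg8. Its level was 117, 108 and 111 CPM in control and 426, 411 and 319 CPM in treated libraries. The control libraries lay close together, and the third treated library was the lowest of its group while still above all controls. The log2 fold change was 1.78 ± 0.16 (adjusted p = 2.84e-06), a 3.44-fold rise under TMM scaling that turned to -0.65 with ribosomal protein genes held equal.

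Snhg12, a neighbour of Snhg3 on chromosome 4, carries 5 snoRNA genes. It stood at 33.2, 26.4 and 26.9 CPM in control and at 92.1, 103 and 81.7 CPM in treated libraries. All treated libraries were above all controls. The log2 fold change was 1.68 ± 0.17 (adjusted p = 5.71e-06), and it was -0.73 with ribosomal protein genes held equal.

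Snhg1, which carries 8 snoRNA genes, stood at 68.0, 72.8 and 76.8 CPM in control and at 205, 198 and 160 CPM in treated libraries. Its counts before scaling were nearer, at 1642, 1782 and 1944 in control and 2327, 2240 and 2098 in treated libraries. The log2 fold change was 1.37 ± 0.15 (adjusted p = 1.17e-05), and it was 0.31 when libraries were scaled by their totals. It turned to -1.06 with ribosomal protein genes held equal.

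Snhg6, the host of Snord87, showed the smallest difference and the least stable one. Its level was 24.2, 23.2 and 23.0 CPM in control and 37.8, 42.6 and 28.9 CPM in treated libraries. The controls were almost equal and the treated libraries spread over a wider range above them. The log2 fold change was 0.64 ± 0.19 (adjusted p = 0.00947). By library size alone it was -0.42, with the counts at 584, 567 and 581 in control and 428, 482 and 379 in treated libraries. Its sign also turned with a trend on gene length removed. Without the second treated library (0.44, adjusted p = 0.0707) or the third control library (0.59, adjusted p = 0.0561) Snhg6 was not called.

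Gas5 had the largest fall by TMM, though Snhg5 fell further with a trend on gene length removed and, by a small margin, on the log2(FPKM + 1) scale (-1.77 against -1.72). Gas5 was found through its rise in cells arrested in growth, and its transcript is known as a textbook target of nonsense-mediated decay and as a decoy of the glucocorticoid receptor. Its counts were 487, 765 and 727 in control and 64, 52 and 63 in treated libraries. These scaled to 20.2, 31.3 and 28.7 CPM and to 5.65, 4.60 and 4.81 CPM. The first control library was the lowest control and still held several times the level of any treated library. The log2 fold change was -2.41 ± 0.24 (adjusted p = 5.19e-06), a 5.32-fold fall. It stood -2.24 from the median of all genes on the log2 scale. Other scalings gave larger falls, with log2 fold changes of -3.47 by library totals, -4.85 with ribosomal protein genes held equal and -4.52 with mitochondrial genes held equal.

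Snhg5, the host of Snord50a and Snord50b shown above, also fell. Its level was 43.6, 51.0 and 50.7 CPM in control and 13.5, 13.4 and 10.1 CPM in treated libraries. The counts behind it were 1052, 1247 and 1284 against 153, 152 and 132, with little spread in either group. The log2 fold change was -1.97 ± 0.19 (adjusted p = 4.44e-06), a 3.93-fold fall. It was -3.04 by library totals, -4.42 with ribosomal protein genes held equal, -4.10 with mitochondrial genes held equal and -2.98 with the length trend removed.

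Snhg3, the host of the Snora73 snoRNAs that take part in cutting the ribosomal RNA precursor, was at the floor. It had 2, 1 and 0 counts in control and 0, 0 and 0 in treated libraries, so it was not tested and no fold is given. Of its 986 annotated exon bases, 135 (13.7%) are shared with exons of Rcc1 on the same strand, the gene of a nuclear exchange factor for Ran, and 705 (71.5%) lie opposite exons of the non-coding gene Gm17300. The labels do not say how reads in such shared bases were counted, so the near absence of Snhg3 counts says only that few reads were assigned to it.

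The scalings were set side by side because the direction of the moderate rises depended on them. With TMM, 5 hosts were higher and 2 lower, beside 34.6% and 40.2% of all genes tested. By library size alone 4 were higher and 3 lower, and the median of all genes moved by -1.04 on the log2 scale. Of all calls by library size alone, 22.3% were higher. With ribosomal protein counts held equal 1 host was higher (Snhg8, 0.54 ± 0.16, adjusted p = 0.0157) and 6 were lower, and that median moved by -2.39. Under that scaling only 247 of all genes tested were called higher and 10956 lower, so a fall was the common state. Since these scalings multiply all genes of a library by 1 factor, they move the zero point and hardly the spacing of the hosts.

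**Figure D3:**
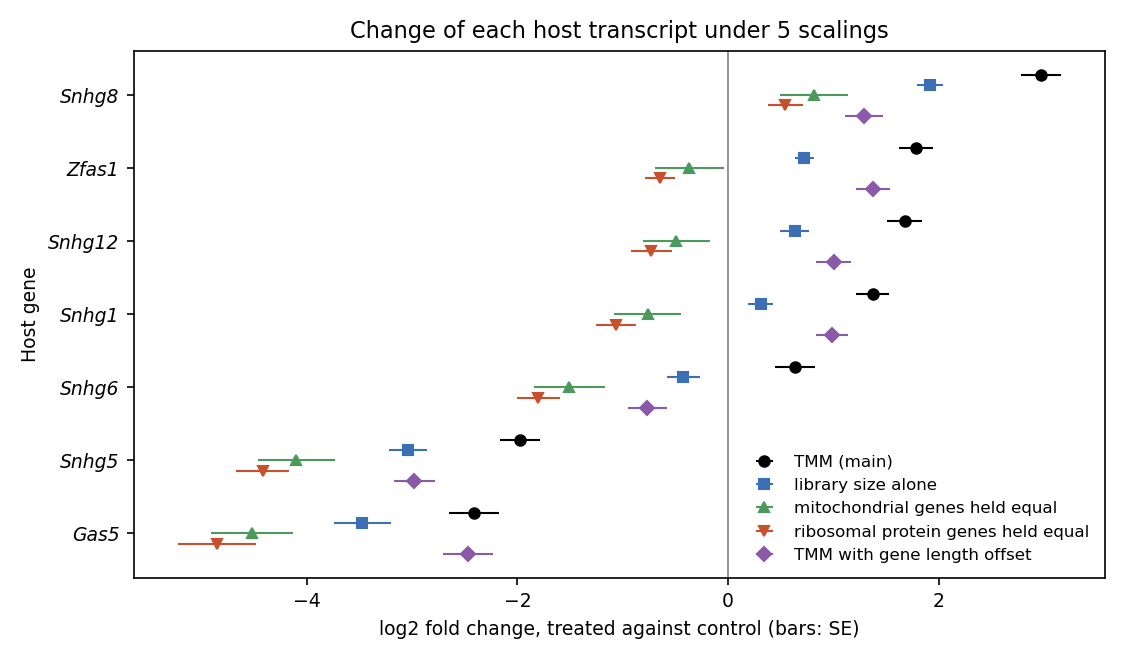
log2 fold change of each tested host gene, treated against control (points, bars are SE), under 5 scalings of the same counts, with a line at 0. Snhg8 lies above 0 and Gas5 and Snhg5 below 0 under all 5. Snhg1, Snhg12, Zfas1 and Snhg6 cross 0 when ribosomal protein or mitochondrial genes are held equal. Snhg6 also crosses 0 when the library size is the only scaling and with the gene length offset.

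Ratios within a library need no scaling factor per library. The ratios of Snhg8 or Zfas1 to Gas5 or Snhg5 were not planned. They set hosts that rose by TMM over hosts that fell, so their separation repeats those differences and is no separate support. Removing the trend on gene length does move a ratio between genes of unlike length. That trend was 1.68 at Snhg8 and 0.05 at Gas5 on the log2 scale. Control libraries held 2.67, 1.49 and 1.51 Snhg8 counts per Gas5 count, and treated libraries held 80.2, 78.8 and 64.9. The means were 1.89 ± 0.673 and 74.6 ± 8.45 (SD, n = 3), with an exact two-sided permutation p of 0.1, the smallest that 3 against 3 libraries allow (0.117 adjusted over the 28 within-library quantities compared). The groups were separated by more than the range of either.

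Snhg8 and Snhg5 had nearly the same counts in control cells, with a ratio of 1.00 ± 0.204, and stood at 30.5 ± 3.31 in treated cells (exact permutation p = 0.1). Zfas1 counts per Snhg5 count went from 2.33 ± 0.304 to 31.3 ± 0.579 (exact permutation p = 0.1). For the 2 hosts that fell, the ratio of Snhg5 to Gas5 counts was 2.16, 1.63 and 1.77 in control and 2.39, 2.92 and 2.10 in treated libraries (exact permutation p = 0.2). Those ranges overlapped.

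The make-up of the host pool therefore differed between the groups. The 8 genes together took 0.0481%, 0.0547% and 0.0523% of counts in control and 0.0789%, 0.0748% and 0.0730% in treated libraries (exact permutation p = 0.1). Within that pool Snhg8 went from 13.3% ± 1.51 to 34.2% ± 2.42, Gas5 from 7.43% ± 1.62 to 0.463% ± 0.0599 and Snhg5 from 13.5% ± 1.16 to 1.13% ± 0.04999 (SD, n = 3). Zfas1 made up 31.1% ± 1.23 in control and 35.2% ± 0.911 in treated cells. Snhg12 made up 8.01% ± 1.05 and 8.49% ± 0.885, with overlapping groups (exact permutation p = 0.8).

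Set against the ribosomal protein counts of the same library, Snhg8 was the host that gained. Scaled as CPM of the ribosomal protein total in place of the library total, it stood at 873 ± 99.0 in control and 1273 ± 144 in treated cells (SD, n = 3). On the same scale Zfas1 went from 2046 ± 215 to 1307 ± 107 and Gas5 from 499.9 ± 171 to 17.3 ± 3.80. All 7 such ratios separated the groups (exact permutation p = 0.1 for each).

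Compared per length, the order of the hosts also differed between the groups. On the TPM scale, computed with the deposited gene lengths, control cells had Snhg8 first (232 ± 17.95), then Zfas1 (159 ± 8.28), Snhg5 (117 ± 19.9), Snhg1 (102 ± 13.6), Snhg6 (84.9 ± 6.08), Snhg12 (49.5 ± 2.50), Gas5 (29.9 ± 8.89) and Snhg3 (0.168 ± 0.159). The neighbours Snhg5 and Snhg1, and Snhg1 and Snhg6, overlapped between libraries in that order. In treated cells Snhg8 was at 545 ± 50.6 and Zfas1 at 163 ± 2.67, followed by Snhg1 (78.5 ± 3.11), Snhg12 (47.9 ± 4.84), Snhg6 (39.2 ± 3.23), Snhg5 (8.82 ± 0.155) and Gas5 (1.67 ± 0.270), with only Snhg12 and Snhg6 overlapping. Snhg5 thus moved from the third place to the sixth.

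The deposited length of each host equals the union of all its annotated exons, and that choice bears on the order. For Gas5 this union is 3760 bases, since 20 of its 25 annotated transcripts are retained-intron forms, whereas its spliced transcript with the most exons is 502 bases long. For Snhg8 the lengths are 853 and 448 bases. With spliced lengths, an alternative chosen after the data were seen, the control order per kilobase was led by Zfas1 (218 ± 5.56 CPM per kilobase, by library totals without TMM factors, SD, n = 3), then Snhg1 (173 ± 19.2) and Snhg8 (153 ± 11.3), and Gas5 (77.2 ± 21.2) overlapped with its neighbours Snhg5 (89.4 ± 13.1) and Snhg6 (71.2 ± 3.17). In treated cells Snhg8 (578 ± 60.6) and Zfas1 (360 ± 13.6) led, and Snhg5 (10.9 ± 0.548) and Gas5 (6.95 ± 0.828) were the lowest of the 7, by either length.

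The snoRNA genes had almost no counts of their own. Of the 32 snoRNA genes inside the hosts, the single one with any count was Snord87 in Snhg6, with 0, 6 and 3 counts in control and 0, 0 and 0 in treated libraries. The sum of 9 counts is below the minimum of 10 set for a description, so no comparison was made. None of the others, Snord47, Snord50a, Snord50b, Snora24 and Gm25878 included, had a count, and 30 of the 32 overlap an exon of some annotated host transcript. Whether reads from these snoRNAs were counted towards their hosts was not tested, and the labels do not say how RNA was selected for the libraries beyond total RNA and a standard protocol.

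The region around the start of each host was examined for a run of C and T that starts with C, the form of the terminal oligopyrimidine tract. RefSeq promoter windows on GRCm38.p6 were found for 7 of the 8 hosts, all but Snhg6. The 75 bases from 45 before to 30 from the annotated start are shown for the 3 hosts with a run of 6 or more within 10 bases of a start, and for Snhg5, which fell with Gas5 and has a shorter run. Capitals mark the longest run of C and T that starts with C near the start, and the letters TATAAA, searched on both strands from 45 to 10 bases before the start. The windows are chr1:161035121-161035195 (plus strand, the downstream of the 2 RefSeq starts of Gas5), chr3:123508307-123508381 (minus strand), chr4:132308633-132308707 (plus strand) and chr9:88522868-88522942 (minus strand).
Gas5: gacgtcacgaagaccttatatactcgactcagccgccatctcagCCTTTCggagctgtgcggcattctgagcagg
Snhg8: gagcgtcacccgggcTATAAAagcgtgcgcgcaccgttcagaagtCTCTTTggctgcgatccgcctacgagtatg
Snhg12: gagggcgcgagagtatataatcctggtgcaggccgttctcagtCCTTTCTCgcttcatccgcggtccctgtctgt
Snhg5: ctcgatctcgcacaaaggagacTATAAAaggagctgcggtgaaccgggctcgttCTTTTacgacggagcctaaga

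A run of 6 or more was present at the downstream start of Gas5 (6 bases), in Snhg8 (6) and in Snhg12 (8), and in 5844 of 32851 RefSeq promoters (17.8%). At the upstream start of Gas5 the longest run had 3 bases. In Snhg5 it had 5 bases, 9 bases into the annotated transcript, in Snhg3 it had 5, and in Snhg1 and Zfas1 it had 4. The letters TATAAA were found in Snhg8 and Snhg5 on the strand of the gene and in Snhg1 on the other strand, and in 2.95% of all promoters. Hosts that rose and hosts that fell were on both sides of each feature: of the hosts with the longer run at a start, Snhg8 and Snhg12 rose by TMM (Snhg12 turned with ribosomal protein or mitochondrial genes held equal) and Gas5 fell, and of the pair with TATAAA on the gene's strand Snhg8 rose and Snhg5 fell. These are matches of letters in a window and not mapped transcription starts.

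For 3 hosts the annotation has a protein-coding gene on the other strand whose start lies within 2 kb. Zfas1 and Znfx1, a gene for a zinc finger helicase, start 81 bases apart and share 82 exon bases, 2.8% of those of Zfas1. Znfx1 went from 42.2 ± 4.96 to 15.2 ± 1.14 CPM, a log2 fold change of -1.47 ± 0.18 (adjusted p = 2.30e-05), against 1.78 for Zfas1. Both directions held by TMM, and Zfas1 turned with ribosomal protein or mitochondrial genes held equal. The count ratio of Zfas1 to Znfx1 is not moved by a scaling factor per library. It was 2.60, 2.96 and 2.47 in control and 29.8, 27.7 and 19.4 in treated libraries (exact permutation p = 0.1). The pair was thus further apart in every treated library than in any control.

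Snhg1 and Slc3a2, which encodes the heavy chain of amino acid transporters, start 106 bases apart and share no exon bases. By TMM, Slc3a2 stood at 239 ± 41.5 CPM in control and 229.9 ± 32.9 CPM in treated cells. This was a log2 fold change of -0.06 ± 0.18 (adjusted p = 0.775) whose sign varied with the scaling. Its counts before scaling were 6891, 5007 and 5771 in control and 2790, 2843 and 2515 in treated libraries. The ratio of Snhg1 to Slc3a2 counts was 0.238, 0.356 and 0.337 in control and 0.834, 0.788 and 0.834 in treated libraries (exact permutation p = 0.1). Gas5 and Zbtb37, the gene of a zinc finger protein, start 427 bases apart. Zbtb37 went from 6.11 ± 2.87 to 2.14 ± 1.80 CPM (log2 fold change -1.49 ± 0.57, adjusted p = 0.0349), a call lost without the second control, the third control, the first treated or the second treated library (adjusted p 0.0683 to 0.127). The ratio of Gas5 to Zbtb37 did not separate the groups, at 4.77 ± 1.26 and 3.99 ± 3.18 (exact permutation p = 0.7).

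**Figure D4:**
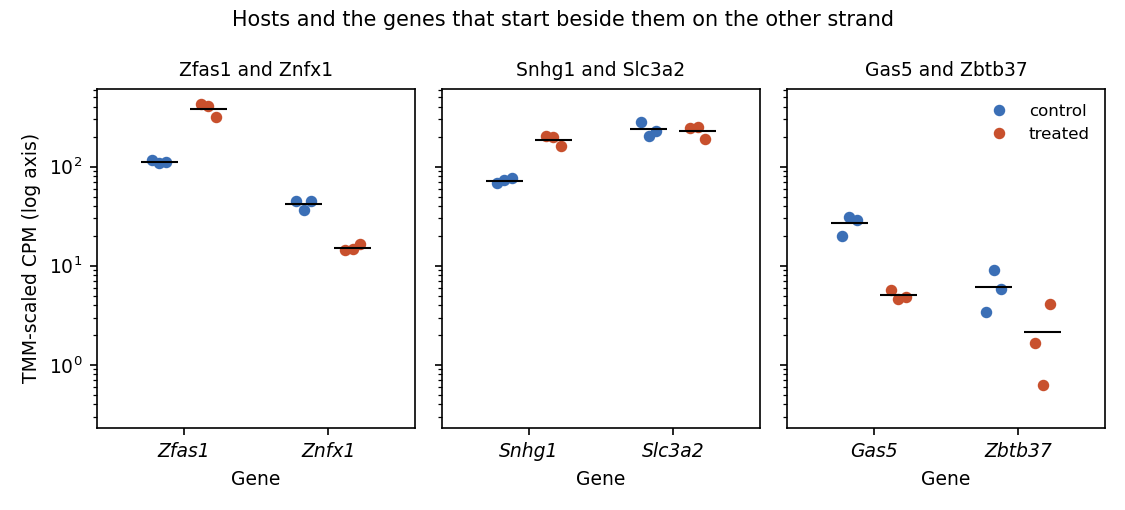
TMM-scaled CPM (log axis) of Gas5, Snhg1 and Zfas1, each beside the gene that starts next to it on the other strand, in 3 control and 3 treated libraries (points), with group means as lines. Zfas1 and Znfx1 move in opposite directions with TMM scaling (Zfas1 turns with ribosomal protein or mitochondrial genes held equal). With TMM scaling Slc3a2 has means of 239 and 229.9 CPM while Snhg1 rises. Under the same 2 settings Snhg1 turns and Slc3a2 moves down with the median of all genes. Gas5 and Zbtb37 are both lower.

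Beside Snhg3, Rcc1 fell from 161 ± 18.9 to 66.8 ± 4.92 CPM (log2 fold change -1.27 ± 0.15, adjusted p = 1.96e-05). Gm17300, which lies opposite Snhg3, had a log2 fold change of -1.98 ± 0.72 (adjusted p = 0.0277), a call lost without the first control (adjusted p = 0.0752), the third control (0.0895) or the second treated library (0.0640).

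For each host the gene with the most similar pattern over the 6 libraries was found by the Euclidean distance between log2 CPM values centred on their means, among 9295 genes with a mean of at least 5 CPM. Snhg12 was nearest to Calr, the gene of the chaperone calreticulin (distance 0.0749). Zfas1 was nearest to Rpl5, a ribosomal protein gene that is itself annotated with 3 snoRNA genes (0.103). Snhg5 was nearest to 2610301B20Rik (0.117), Snhg6 to Hoxc9 (0.130), Snhg1 to Fam3a (0.134), Snhg8 to Clec11a (0.203) and Gas5 to Rpf1 (0.217). With 6 libraries in 2 groups such a match mostly repeats the size of the difference, as with Clec11a at a log2 fold change of 3.00 and Rpf1 at -2.35.

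The hosts were then set beside other gene lists, each described by its counts and median next to the median of -0.18 over all genes tested. Of all genes tested 34.6% were called higher and 40.2% lower. All these counts and directions are by TMM, and with equal ribosomal protein counts the median of all genes moves by -2.39 and the lists move with it. Of 16 other genes listed by name as non-coding snoRNA hosts, 12 were tested, of which 8 were higher and none lower. Their median log2 fold change was 1.51, which is 1.69 above that of all genes. Mir22hg, Snhg10 and Snhg20 had no annotated snoRNA gene inside their span on the same strand. Snhg10 (2.33) and Snhg20 (1.91) were among the genes called higher, and Mir22hg (0.30) was not called. Epb41l4aos rose from 14.7 to 106 CPM and 2410006H16Rik from 144 to 1029 CPM, log2 fold changes of 2.85 ± 0.25 and 2.84 ± 0.26 that lie next to the 2.97 of Snhg8. Dancr, at -0.19, was the lowest of the 12 tested and was not called, so no tested gene on that list fell as Gas5 and Snhg5 did.

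Ribosomal protein genes with a snoRNA gene inside their span on the same strand were higher in 30 of 30 cases (median 2.29). Those without one were higher in 46 of 47 (median 2.49). Snhg8 was thus above both medians and the other tested hosts below them. Other protein-coding snoRNA hosts were mixed, with 39 of 165 tested higher and 90 lower (median -0.87), from Cryl1 at 2.47 and Nup210l at 2.45 to Cnot1, the scaffold of the main deadenylase complex, at -4.57 and the chaperone gene Hspa8 at -4.35. Genes of the long non-coding biotypes, the 8 hosts left out, had a median of 0.40, with 251 of 774 higher and 141 lower. Gas5 and Snhg5 were below, and the 5 other tested hosts above, that median.

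**Figure D5:**
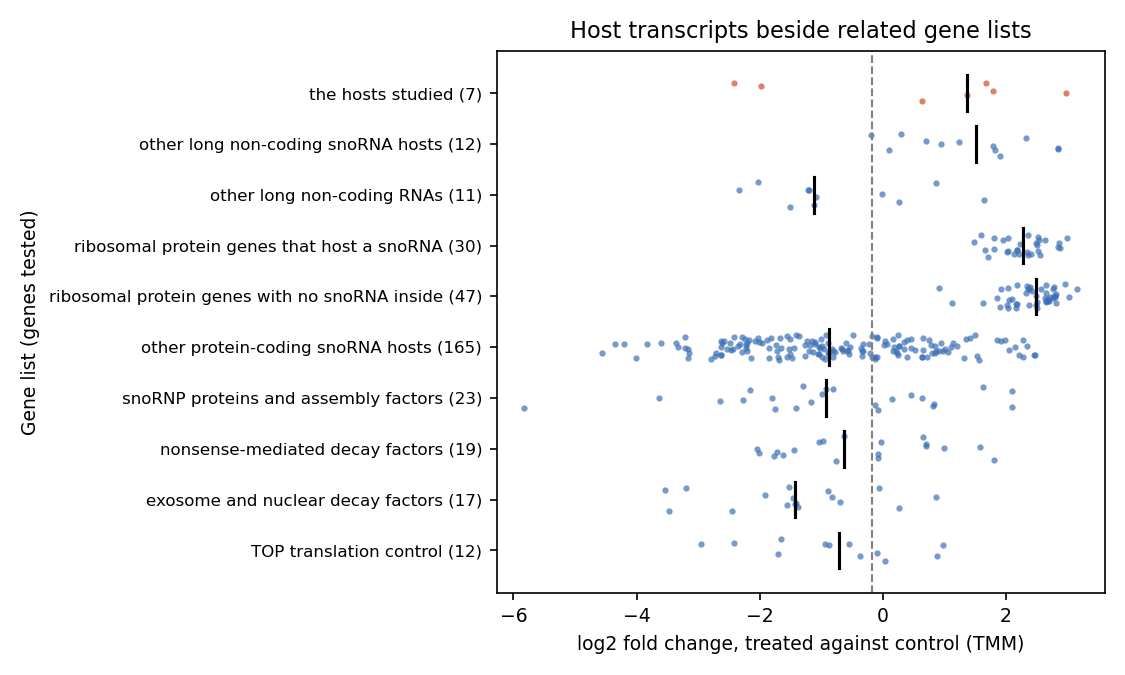
log2 fold change with TMM scaling, treated against control, of the tested genes of each list (number tested in brackets), with the hosts studied on a line of their own and the median of all genes, -0.18, as a dashed line. Under TMM the ribosomal protein lists lie to the right (medians 2.29 and 2.49, values that move by -2.39 when those genes are held equal), and the hosts studied spread from -2.41 for Gas5 to 2.97 for Snhg8.

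Genes that make or remove snoRNA hosts and their products were counted from lists of known factors. For these lists and those below, the shares over all genes tested were 34.6% higher and 40.2% lower by TMM. Of 23 tested genes for proteins that assemble snoRNA particles, 7 were higher and 13 lower (median -0.93). Nufip1 (-5.82) and Shq1 (-3.63), both assembly factors, fell the most, and Nop10 (2.10), a core H/ACA protein, and Pih1d1 (2.10), an assembly factor, rose with TMM scaling but turned with ribosomal protein or mitochondrial genes held equal. Of 19 genes of nonsense-mediated decay 5 were higher and 10 lower (median -0.63), with Smg1, the kinase that acts on Upf1, at -2.05 and the exonuclease gene Xrn1 at -2.01. The exon junction genes Magoh (1.81) and Rbm8a (1.57) were higher, and turned under the same 2 scalings.

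Of 17 exosome and nuclear decay genes 14 were lower and 1 higher (median -1.42). The exosome cofactor genes Skiv2l2 (-3.53) and Mphosph6 (-3.48) fell the most, and the subunit gene Exosc5 (0.86) rose with TMM, turning by library size alone and under those 2 scalings. Of 12 genes that act on oligopyrimidine tract mRNAs 6 were lower and 2 higher (median -0.71), with Larp1, which binds the tract, at -2.42 and Larp4 at -2.96, and with Pabpc1 (0.98) and Eif4ebp1 (0.89) higher by TMM and turning under the same 3. Of 11 other long non-coding RNAs 7 were lower and 1 higher (median -1.11), from Dnm3os (-2.34) and Ftx (-2.03) to Malat1, at 1.65 with TMM, 1.08 without the third treated library, and turning with ribosomal protein or mitochondrial genes held equal. The hosts that fell, Gas5 and Snhg5, lay below the medians of all 5 lists, and the 5 that rose by TMM lay above them.

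Gene length moved with the fold changes over all genes. The deposited lengths of the tested hosts ran from 853 bases for Snhg8 to 3760 for Gas5. These are exon unions, and spliced lengths were not used in the trend below. A smooth trend of log2 fold change on deposited length reached 1.68 at the length of Snhg8, 1.40 at Snhg6, 1.00 at Snhg5, 0.67 at Snhg12, 0.41 at Zfas1, 0.39 at Snhg1 and 0.05 at Gas5. With that trend removed, Snhg8 stood at 1.29, Zfas1 at 1.38, Snhg12 at 1.01 and Snhg1 at 0.98, Gas5 at -2.47 and Snhg5 at -2.98, and Snhg6 turned to -0.77. Zfas1 was then above Snhg8, and Snhg5 below Gas5. The part of length itself in these differences was not tested.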

How the data were processed

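Counts and FPKM of the 6 libraries stand in 2 deposited tables, each with gene lengths. The counts are whole numbers made by the authors, FPKM values were deposited in a table of their own, and the deposited lengths equal exon unions. The submitters' processing notes list DESeq2 1.24.0, RSEM 1.3.1 and HISAT2 2.1.0, with mm10 and GRCm38 as builds, and give no roles. Use of strand in counting is not stated. Deposited FPKM values relate to counts by a constant that differed between groups (0.635 to 0.719 in control, 1.22 to 1.64 in treated libraries), so they were used only as an alternative.

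Counts were filtered with filterByExpr and fitted over the whole table with edgeR 4.0.16 (TMM, glmQLFit and glmQLFTest, both robust, treated against control, no covariate), with Benjamini-Hochberg adjustment over 13290 genes and a threshold of 0.05. R 4.3.3, limma 3.58.1, DESeq2 1.42.0 and Python 3.11.15 were used. The fit was tested on simulated data in which 200 genes were changed, as many up as down. It recovered 48 of 98 genes changed by 1 and 90 of 97 changed by 2 on the log2 scale, with 12 false calls among 150. A far larger share of genes was called in the real libraries, so this simulation cannot test the TMM scaling there. Shares and ratios were compared by exact two-sided permutation over libraries, and of these only the share of counts in the 8 hosts together was planned. Levels per length are TPM computed from counts and lengths. All 8 coordinates matched GENCODE M21. No pair of libraries agreed within sampling noise (chi-square per degree of freedom 10.7 or more).

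The 8 genes and all lists were chosen with earlier results of these data known. Named beside them were tested genes that overlap a host or start within 2 kb on the other strand, nested snoRNAs with 10 or more counts, up to 2 of the largest called rises and falls per list (mean of 1 CPM or more), and the nearest gene to each host. Dancr, Snord87 and the snoRNAs at 0 were named after their values were seen. Alternatives covered scaling, filter, test, deposited FPKM, a replicate block, a length offset and leaving out each library. Lymphocyte and endothelial markers summed to 0 to 0.763 and 0 to 0.538 CPM per library. Epithelial markers summed to 2.74 to 3.99 CPM in control and 9.85 to 12.8 CPM in treated libraries. Most of that sum was Krt14, which was called higher by TMM (log2 fold change 1.63).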

Additional observations from a re-analysis of the deposited data

How the results depend on the processing

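Snhg8 kept a call as higher, and Gas5 and Snhg5 as lower, in every alternative run. With ribosomal protein genes held equal the log2 fold changes turned to -1.06 (Snhg1), -1.80 (Snhg6), -0.73 (Snhg12), -0.65 (Zfas1), -0.33 (Pih1d1), -0.32 (Nop10), -0.88 (Rbm8a), -0.62 (Magoh), -1.57 (Exosc5), -1.54 (Eif4ebp1), -1.37 (Pabpc1), -0.68 (Malat1), -0.99 (Fam3a), -1.82 (Hoxc9), -0.78 (Calr) and -0.72 (Rpl5). With mitochondrially encoded genes held equal the same genes stood, in that order, at -0.76, -1.51, -0.49, -0.37, -0.065, -0.066, -0.56, -0.35, -1.32, -1.29, -1.19, -0.46, -0.70, -1.55, -0.55 and -0.43. Library size alone turned Snhg6 (-0.42), Exosc5 (-0.20), Eif4ebp1 (-0.17), Pabpc1 (-0.038) and Hoxc9 (-0.45), and the length offset turned Snhg6 (-0.77) and Hoxc9 (-0.057). Slc3a2, not called in any of these, turned to 0.067 (RLE factors), 0.11 (upper-quartile factors), 0.067 (DESeq2), 0.023 (both FPKM pseudocounts), 0.059 (without control 1) and 0.024 (without treated 3), in a range of -0.19 to 0.059 with 1 library left out.

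When ribosomal protein genes were held equal 1 host was higher and 6 were lower, and when mitochondrial genes were, 1 and 4. Over all genes these settings called 247 higher and 10956 lower (ribosomal protein) and 334 higher and 10333 lower (mitochondrial), and library size alone called 2277 and 7924. The share of calls that were higher was 46.3% in the reported fit and 2.2%, 3.13% and 22.3% in these. Without the low-count filter Snhg6 was not called (0.48). Leaving out 1 library gave 4 to 5 hosts higher, 2 lower, 4125 to 4564 genes higher and 4928 to 5737 lower. The share of the hosts differed by 0.0238 percentage points, by 0.0220 to 0.0253 with 1 library left out, and by 0.0410 with ribosomal protein and mitochondrial counts left out of the total.

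The deviations of libraries with the same replicate number had correlations of 0.22, -0.137 and 0.029. Those of libraries with unlike numbers ran from -0.377 to 0.383. With 3 libraries in a group such values cannot decide whether the number pairs them. The replicate block gave 5 hosts higher and 2 lower, with 4450 and 5411 of all genes, and with the length offset as well Snhg6 was at -0.78. Snhg3 and the nested snoRNAs had too few counts to compare, and the cause was not tested.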
